A study of Homo sapiens with 24 samples.

Results

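The laminin chain genes LAMA3, LAMA5, LAMB1, LAMB2, LAMB3 and LAMC1 and the matrix genes COL12A1, EFEMP1 and LUM were followed across every group of a study of the kinase gene TAOK2 in A549 cells. They are 9 of 35579 genes, given by name and not by a threshold, and each level is the sum of the deposited abundances of that gene's transcripts, 100 transcripts in all. Abundances are TPM, a unit scaled by transcript length and to a fixed total in each library, so levels of different genes can be set side by side. The genes were selected on measured values of these data: LAMB3, EFEMP1 and COL12A1 were among the largest differences between the siRNAs in whole cells and LUM among those in the fractions, while the values that chose the other 5 were not given. The whole-cell knockdown values of all 9 genes and the knockdown values of LUM in the fractions are therefore given as descriptions with no test. Where the other 5 are tested, the values may be those that chose them, so their p-values may be too small.

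A549 is a human lung adenocarcinoma cell line, labelled lung epithelial and wild type. Polyadenylated RNA was sequenced in 24 libraries of 2 experiments, and nothing beyond transfection in triplicate says that libraries of a group came from separate cultures, so p-values measure the spread between libraries, which may be technical. In the whole-cell experiment, 4 groups had 3 libraries each, 1 in each of batches A, B and C: a pool of siRNAs against TAOK2 at 30 nM, a non-targeting control siRNA pool at 30 nM, compound 2, which the labels call a TAOK2 kinase inhibitor with no dose or duration, and the vehicle DMSO. The names of all whole-cell libraries carry the word mock, which the labels do not explain. For the fractionation experiment, RNA labelled as total, nuclear or cytoplasmic came from cells given TAOK2 siRNA or control siRNA; each of these 6 groups had 2 libraries, from batches 1 and 2, and the fractions of a batch share that batch.

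Laminins are cross-shaped proteins of the basement membrane, each built of 1 alpha, 1 beta and 1 gamma chain that join inside the cell and are secreted together. Laminin-332, which holds the products of LAMA3 and LAMB3, anchors epithelia through hemidesmosomes. LAMA5 with LAMB1 or LAMB2 and LAMC1 makes the laminins that line the alveolar and airway epithelium. Integrins, dystroglycan and BCAM bind laminin at the cell surface, and nidogen, perlecan and collagen IV tie it into the sheet. COL12A1 encodes a collagen that sits on the surface of collagen fibrils, EFEMP1 encodes fibulin-3, a secreted glycoprotein with EGF-like repeats, and LUM encodes lumican, a small leucine-rich proteoglycan that binds collagen fibrils.

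TAOK2, the gene targeted by the siRNA, had 10.6, 12.5 and 8.56 TPM with TAOK2 siRNA against 40.3, 38.2 and 34.3 TPM with control siRNA in whole cells, and was lower with TAOK2 siRNA in both batches of every fraction. Its log2 change was -1.75 in whole cells, -0.89 in total, -0.57 in nuclear and -1.34 in cytoplasmic RNA. In the fractions TAOK2 did not pass (adjusted p = 0.880, 0.834 and 0.565 by limma). With batch as a block it passed in cytoplasmic RNA only (0.0128). A gene that did not pass in a fraction is therefore not shown to be unchanged. Across genes, libraries of the same group had Pearson correlations of 0.984 to 0.997 in whole cells and 0.928 to 0.970 in the fractions. Read totals are not kept in TPM, so the depth behind a value is unknown. Epithelial markers were abundant in all libraries. Over 10 genes they summed in whole cells to 8629.6 to 9503 TPM with TAOK2 siRNA against 6535 to 6826 TPM with control siRNA, and to 6896 to 9611 TPM with compound 2 against 7300.1 to 8834 TPM with DMSO. With TAOK2 siRNA against control siRNA they summed to 4711 to 6106 against 3662 to 4449 TPM in total RNA, 5486 to 6178 against 3477 to 4268 TPM in nuclear RNA, and 3712 to 4103 against 2998 to 3151 TPM in cytoplasmic RNA. These sums did not overlap between the siRNAs in whole cells or in any fraction, and their part in the knockdown values below was not tested. The keratins KRT8, KRT18 and KRT7 held most of the sums in whole cells, so they do not stand for every epithelial marker. EPCAM went the other way in whole cells, at 5.71 to 8.60 TPM with TAOK2 siRNA against 10.9 to 12.2 TPM with control siRNA. EPCAM was also lower without overlap in every fraction. The 12 fibroblast markers other than the genes studied here summed to 10.9 to 43.2 TPM and 5.92 to 31.7 TPM, with POSTN and FAP under 0.1 TPM in every library. Endothelial markers summed to 40.2 to 60.4 TPM and 1.32 to 14.5 TPM over 8 genes. Leukocyte markers summed to 13.9 to 30.4 TPM and 22.3 to 103 TPM over 8. Among endothelial markers in whole cells only EGFL7 averaged at least 1 TPM, and VWF, KDR, TEK and ERG were under 0.1 TPM in every library. In the fractionation experiment PECAM1 and EGFL7 averaged at least 1 TPM. The tables of the experiments are separate, so levels are not tested between them. In bulk RNA, fewer cells of a type and less RNA per cell cannot be told apart.

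In whole cells, LAMB1, LAMC1 and LAMA5 had the highest mean levels of the 6 laminin chains in every group. Beta chains summed to 379 ± 14.1 TPM with TAOK2 siRNA, 375 ± 18.0 TPM with control siRNA, 207 ± 14.7 TPM with compound 2 and 340 ± 23.3 TPM with DMSO (SD, n = 3 each). Alpha chains summed to 167 ± 21.8 TPM with TAOK2 siRNA, 135 ± 17.5 TPM with control siRNA, 104 ± 9.72 TPM with compound 2 and 135 ± 8.27 TPM with DMSO. Alpha chains thus summed to less than beta chains in each group. Of laminin chain genes not among the 9, LAMC3 and LAMA4 averaged 1.13 and 1.03 TPM in whole cells and were below 1 TPM in the fractionation experiment, and LAMA1, LAMA2 and LAMB4 averaged below 1 TPM in both.

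LAMB3 (ENSG00000196878, GRCh38 chromosome 1, 209614870 to 209652466, reverse strand), the beta chain of laminin-332, had 33.7, 37.7 and 32.9 TPM with TAOK2 siRNA in batches A, B and C, against 11.98, 11.8 and 12.3 TPM with control siRNA. Every TAOK2 siRNA library was above every library of the other 3 groups, whose highest was a DMSO library at 19.9 TPM. The log2 change was 1.46 ± 0.12 (SE). Its lowest value under 12 other settings was 1.39.

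LAMB3 is read from several starts, and transcripts of both starts below held more TPM with TAOK2 siRNA. LAMB3-201 spans the whole gene and had 29.5 TPM with TAOK2 siRNA against 9.62 TPM with control siRNA (group means). LAMB3-204 starts 1.07 kb further in, ends 19.6 kb short of the gene's 3′ end, and had 3.60 against 1.40 TPM. The 300 bases around these starts, 250 before and 50 after, are shown because LAMB3 did not overlap between the siRNAs in whole cells and because the share of LAMB3-204 rose with compound 2, as described further on. RefSeq (GRCh38.p14) places them on the reverse strand at chr1:209652376-209652675 for LAMB3-201, whose GENCODE start lies 41 bases away, and at chr1:209651325-209651624 for LAMB3-204, 20 bases away. Capitals mark matches on either strand to the letters TGANTCA (the AP-1 site), GGAATG (the TEAD site) and GGGCGG (the GC box), which do not overlap each other here. These letters occur in 7.71%, 14.0% and 45.0% of 35116 such windows of all genes.
LAMB3-201 start: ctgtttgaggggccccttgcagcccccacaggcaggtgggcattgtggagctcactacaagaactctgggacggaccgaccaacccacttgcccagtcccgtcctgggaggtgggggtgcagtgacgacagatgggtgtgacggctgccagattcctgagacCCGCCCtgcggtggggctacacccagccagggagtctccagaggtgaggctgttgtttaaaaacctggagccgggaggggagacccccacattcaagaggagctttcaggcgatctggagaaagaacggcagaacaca
LAMB3-204 start: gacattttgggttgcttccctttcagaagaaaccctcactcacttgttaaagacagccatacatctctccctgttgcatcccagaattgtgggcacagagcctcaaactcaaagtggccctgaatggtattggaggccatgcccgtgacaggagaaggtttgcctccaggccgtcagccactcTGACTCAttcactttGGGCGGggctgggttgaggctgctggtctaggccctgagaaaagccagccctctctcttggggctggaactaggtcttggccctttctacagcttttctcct
Only the second window holds an AP-1 match, TGACTCA, and each holds 1 GC box. A match is a description of the letters and was not tied to any binding data.

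COL12A1 (ENSG00000111799, chromosome 6, 75084326 to 75206051, reverse strand) had 6.93, 11.6 and 9.49 TPM with TAOK2 siRNA against 2.92, 2.78 and 3.70 TPM with control siRNA in whole cells, and the groups did not overlap. Its log2 change was 1.30 ± 0.22. EFEMP1 (ENSG00000115380, chromosome 2, 55865967 to 55924139, reverse strand) had 26.6, 58.6 and 28.1 TPM against 8.67, 9.44 and 10.5 TPM, again without overlap, a log2 change of 1.79 ± 0.37. Batch B held the highest TAOK2 siRNA library of both genes, and batch B was also highest for EFEMP1 with DMSO (31.6 TPM against 15.3 and 14.0 TPM) and with compound 2. LUM (ENSG00000139329, chromosome 12, 91102629 to 91111831, reverse strand) had 0.0675, 0.710 and 0.738 TPM with TAOK2 siRNA and 0.0449, 0.0440 and 0.114 TPM with control siRNA. Its mean over whole-cell libraries was below the 1 TPM required for a fit, so 8 of the 9 genes entered the whole-cell fits and all 9 those of the fractionation experiment.

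The window at the start of COL12A1 is shown because this gene was, with LAMB3, among the largest whole-cell differences, and it differs from those of LAMB3 in its matches. It lies at chr6:75206004-75206303 (RefSeq, GRCh38.p14, reverse strand), 2 bases from the GENCODE start of COL12A1-201, with capitals as above.
COL12A1-201 start: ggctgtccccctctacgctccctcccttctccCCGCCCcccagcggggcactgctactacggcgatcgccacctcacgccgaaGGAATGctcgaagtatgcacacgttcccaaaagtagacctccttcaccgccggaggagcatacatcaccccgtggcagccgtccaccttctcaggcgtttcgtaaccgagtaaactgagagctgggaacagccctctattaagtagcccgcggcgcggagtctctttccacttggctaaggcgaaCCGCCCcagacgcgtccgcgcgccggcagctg
It holds 1 match to GGAATG, 2 to the GC box and none to the AP-1 letters, which says only that these letters are absent from this window. RefSeq windows were at hand for 7 of the 9 genes, and EFEMP1 and LUM had none.

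The other laminin chains differed less with TAOK2 siRNA in whole cells. LAMA5 (ENSG00000130702, chromosome 20, 62307955 to 62367312, reverse strand) had 161, 177 and 133 TPM with TAOK2 siRNA against 139, 118 and 107 TPM with control siRNA, and LAMB2 (ENSG00000172037, chromosome 3, 49121114 to 49133118, reverse strand) 49.1, 60.0 and 35.5 against 37.0, 34.2 and 27.3 TPM. Both were higher in all 3 batches, but their groups overlapped, and their log2 changes were 0.37 ± 0.11 and 0.52 ± 0.19. LAMC1 (ENSG00000135862, chromosome 1, 183023460 to 183145592, forward strand) had 148, 158 and 159 TPM against 135, 133 and 138 TPM without overlap (0.19 ± 0.05). LAMB1 (ENSG00000091136, chromosome 7, 107923799 to 108003255, reverse strand) was lower in every batch, at 304, 289.6 and 294 TPM against 347, 319.6 and 324 TPM (-0.16 ± 0.07). LAMA3 (ENSG00000053747, chromosome 18, 23689443 to 23956222, forward strand), the alpha chain of laminin-332, was also lower in every batch, at 8.97, 6.92 and 8.70 TPM against 12.6, 11.9 and 9.85 TPM (-0.44 ± 0.20). The summed levels of LAMB3 and LAMA3 therefore did not share a direction. For LAMA3 this holds for transcripts of its distal start, at 6.56 TPM with TAOK2 siRNA against 9.48 TPM with control siRNA (group means). Transcripts of its inner start averaged 0.341 against 0.114 TPM, too low to give a direction. The values therefore give no direction for laminin-332 itself. In this comparison 22.2% of 13106 genes had an adjusted p under 0.05, 7.78% with a higher and 14.4% with a lower level. Higher genes made up 35.1% of the calls, and 48.4% with values centred on the median gene.

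**Figure D1:**
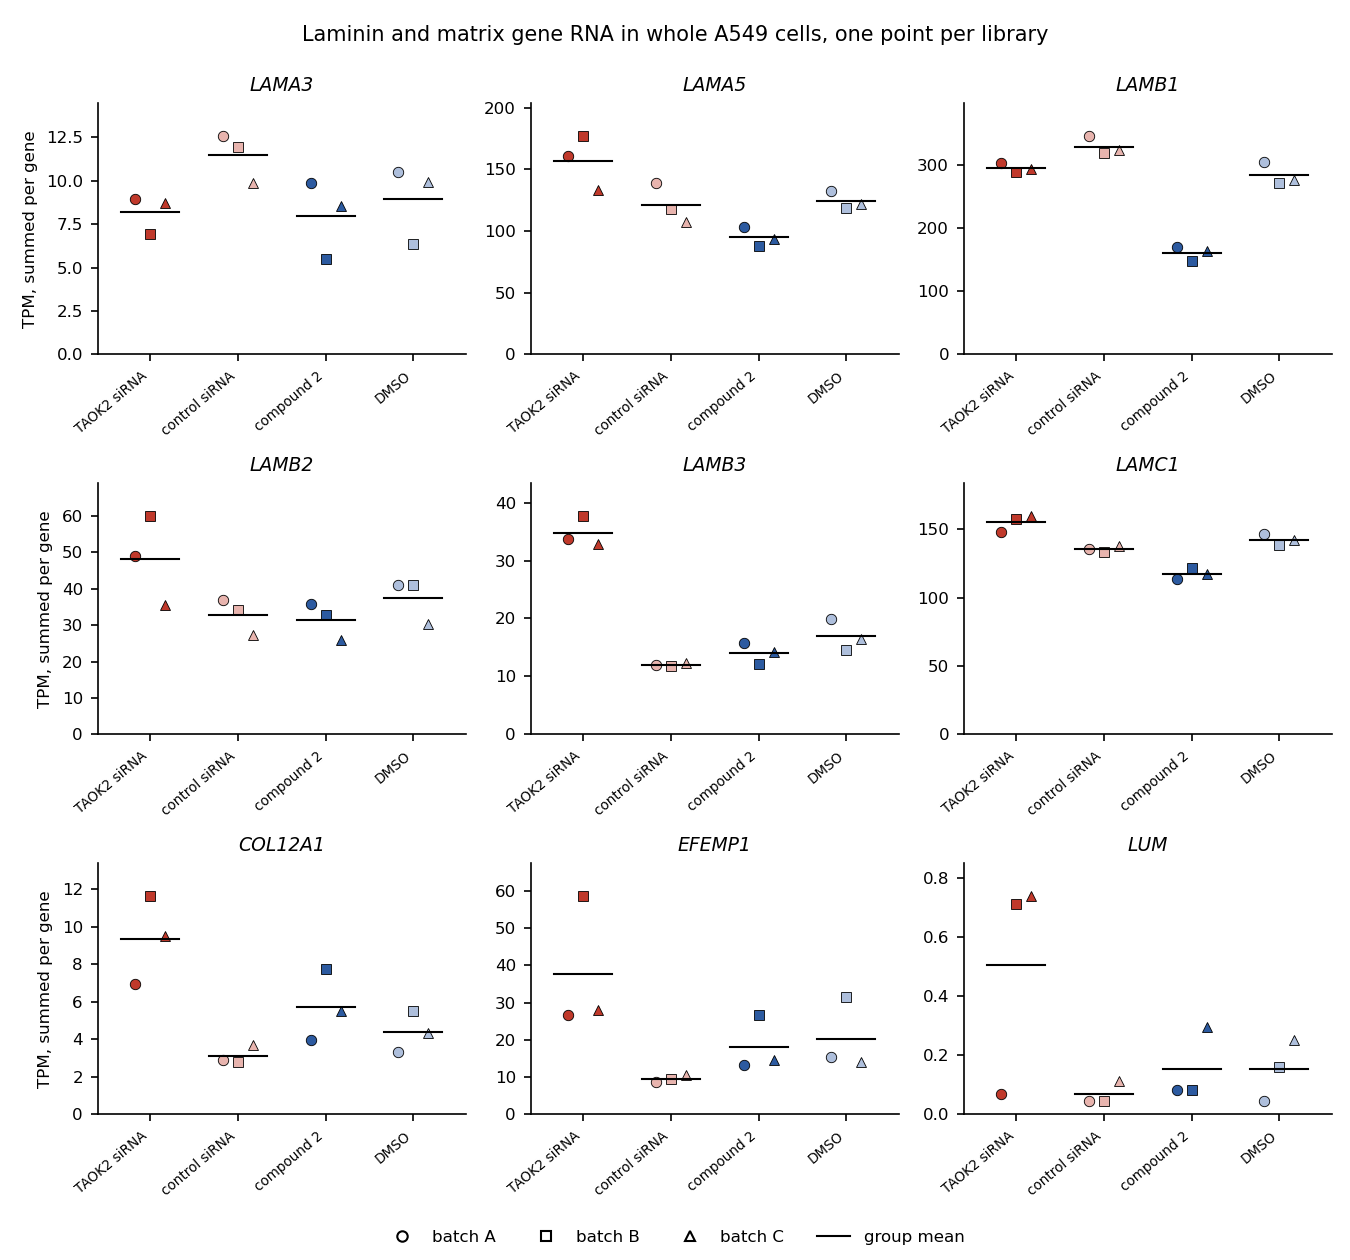
Summed TPM (vertical axes, each from 0) of the 9 genes in whole A549 cells, with 1 point per library, the shape giving the batch and the line the mean of 3 libraries. LAMB3 stands at 32.9 to 37.7 TPM with TAOK2 siRNA, above all other groups, and LAMB1 at 148 to 171 TPM with compound 2, below all other groups.

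In the plot of whole-cell levels, the control siRNA libraries of LAMB3 lie between 11.8 and 12.3 TPM, while those of DMSO spread from 14.5 to 19.9 TPM. EFEMP1 and COL12A1 show their batch B libraries at the top of 3 of the 4 groups.

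The fractionation experiment repeated the knockdown with 2 libraries a group, and the question there was in which compartment RNA levels changed. LAMB3 had 28.2 and 17.6 TPM with TAOK2 siRNA against 17.8 and 12.2 TPM with control siRNA in total RNA, 18.5 and 14.7 against 10.1 and 6.86 TPM in nuclear RNA, and 20.8 and 10.7 against 8.95 and 6.67 TPM in cytoplasmic RNA. It was higher with TAOK2 siRNA in each batch of each fraction, and the groups overlapped only in total RNA. Its log2 changes were 0.57 ± 0.37 in total RNA (adjusted p = 0.983 by limma), 0.91 ± 0.37 in nuclear RNA (0.466) and 0.87 ± 0.37 in cytoplasmic RNA (0.716). With batch as a block it passed in nuclear RNA (adjusted p = 0.0165) and cytoplasmic RNA (0.0245) and missed in total RNA (0.101). Without the block, the 8 tested genes gave 0 calls in each fraction, beside 0%, 0.0145% and 0% of 13751 genes called in total, nuclear and cytoplasmic RNA. At an unadjusted p of 0.05, none of the 8 passed in total RNA, LAMB3 and EFEMP1 did in nuclear RNA and LAMB3 in cytoplasmic RNA. With the block, 339, 811 and 404 genes of the whole table were called.

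LUM was the reverse case in level, scarce in whole cells and moderate in the fractionation experiment. It had 44.7 and 42.8 TPM with TAOK2 siRNA against 17.2 and 17.5 TPM with control siRNA in total RNA. In nuclear RNA the values were 23.9 and 25.0 TPM against 6.26 and 6.87 TPM, and in cytoplasmic RNA 36.4 and 43.9 TPM against 15.3 and 16.7 TPM. The groups were apart in every fraction, with log2 changes of 1.29 ± 0.15, 1.75 ± 0.15 and 1.27 ± 0.15. All 3 annotated LUM transcripts were higher with TAOK2 siRNA; LUM-201, the coding one, had 32.5 against 13.0 TPM in total RNA (group means). Of 16 other small leucine-rich proteoglycan genes, 4 averaged at least 1 TPM over the 12 libraries (DCN, CHAD, PODNL1 and TSKU) and 7 stayed under 0.1 TPM in each, KERA and EPYC among them. TSKU, which encodes tsukushi, ran between 28.1 and 117 TPM and DCN, decorin, between 0.633 and 2.69 TPM. The fibroblast markers summed to 12.6 to 21.8 TPM with TAOK2 siRNA and 9.36 to 13.5 TPM with control siRNA in total RNA, 14.3 to 20.7 and 15.8 to 31.7 TPM in nuclear RNA, and 9.55 to 10.1 and 5.92 to 6.99 TPM in cytoplasmic RNA. Of these 12 markers, 4 averaged at least 1 TPM (COL1A1, DCN, THY1 and MFAP5), and their part in the LUM values was not tested. Leukocyte markers summed to 45.2 to 96.2 TPM with TAOK2 siRNA and 40.4 to 67.4 TPM with control siRNA in total RNA, 32.7 to 46.7 and 22.3 to 31.6 TPM in nuclear RNA, and 45.8 to 103 and 34.4 to 52.6 TPM in cytoplasmic RNA, mostly from CD68 and LYZ. Their part was not tested either.

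COL12A1, higher with TAOK2 siRNA in whole cells, was not so in the fractions. It had 20.6 and 23.2 TPM with TAOK2 siRNA against 25.6 and 16.8 TPM with control siRNA in total RNA, 19.1 and 17.6 against 22.4 and 19.7 TPM in nuclear RNA, and 11.3 and 14.2 against 16.8 and 17.0 TPM in cytoplasmic RNA. Its log2 changes were 0.07 ± 0.21, -0.19 ± 0.21 and -0.38 ± 0.21, with adjusted p between 0.843 and 1. COL12A1 was also higher in this experiment than in whole cells with control siRNA, 16.8 to 25.6 TPM in total RNA beside 2.78 to 3.70 TPM, and COL12A1-205, a coding transcript of the 3′ part, held 7.07 TPM in nuclear and 7.17 TPM in cytoplasmic RNA but was listed at 0 in total RNA with control siRNA. EFEMP1 was low here, at 4.83 and 3.47 against 3.94 and 3.07 TPM in total RNA, 3.38 and 1.97 against 1.39 and 1.41 TPM in nuclear RNA, and 3.08 and 3.61 against 3.15 and 2.44 TPM in cytoplasmic RNA. Its log2 changes of 0.19, 0.59 and 0.20 (SE 0.25 each) did not pass, with adjusted p between 0.484 and 1.

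The remaining laminin chains had no change that passed with TAOK2 siRNA in any fraction. LAMB2 was lower in both batches of cytoplasmic RNA, 18.5 and 15.1 against 32.7 and 21.6 TPM (log2 change -0.64 ± 0.48, adjusted p = 0.981), where it had been higher in whole cells. LAMA5 depended on the batch more than on the siRNA: nuclear RNA held 73.1 TPM in batch 1 and 21.3 TPM in batch 2 with TAOK2 siRNA, and 75.6 and 12.5 TPM with control siRNA. LAMC1 and LAMB1 ran between 61.6 and 127 TPM and between 99.2 and 244 TPM over the 12 libraries, and LAMA3 between 2.00 and 5.90 TPM, with log2 changes from -0.35 to 0.25 in the 3 fractions for these 3 genes. The test of whether knockdown changed the nuclear to cytoplasmic difference gave 0 calls among the 8 tested genes and 0% of 13751 genes, with or without the batch block. At an unadjusted p of 0.05 none of the 8 passed. LUM differed by 0.48 ± 0.21 there, given without a test.

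**Figure D2:**
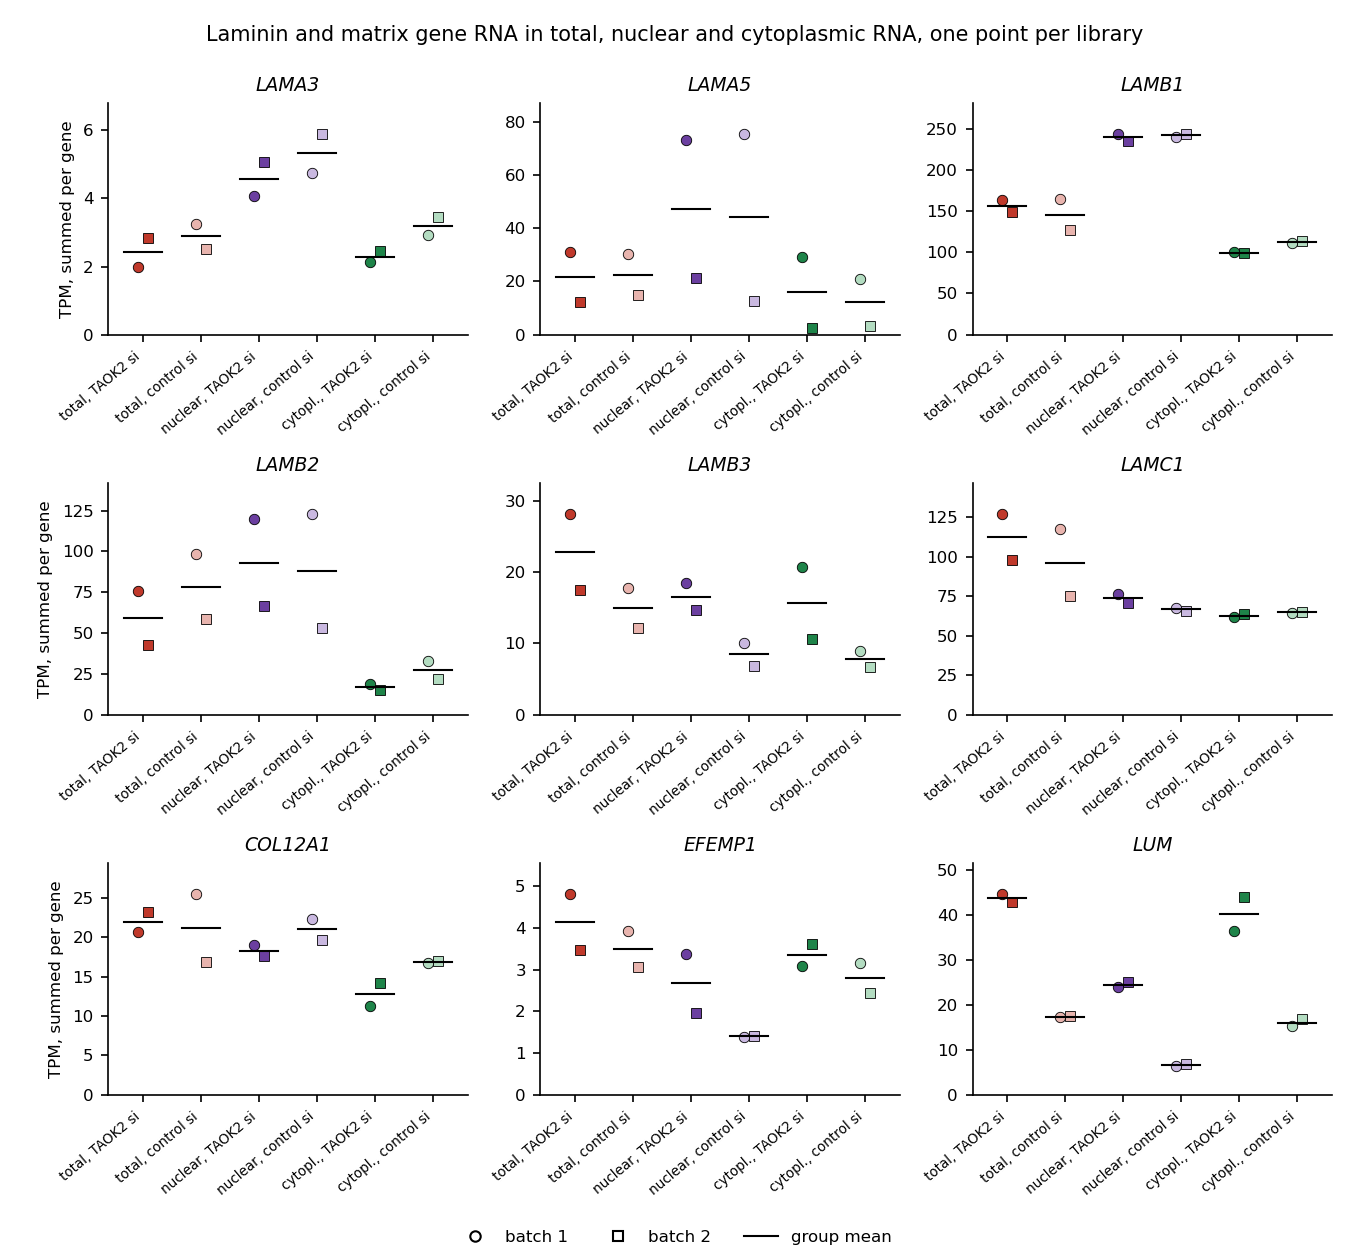
Summed TPM (vertical axes, each from 0) of the 9 genes in total, nuclear and cytoplasmic RNA, with 1 point per library, the shape giving the batch and the line the mean of 2 libraries. LUM stands higher with TAOK2 siRNA in every fraction, and LAMA5 splits by batch, from 2.53 TPM to 75.6 TPM.

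In the plot of fraction levels, LAMB3 shows the same order of siRNAs in each fraction with its batch 1 libraries on top. For COL12A1 the TAOK2 siRNA points lie below those of control siRNA in nuclear and cytoplasmic RNA.

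Compound 2 was compared with its vehicle DMSO in whole cells to ask what an inhibitor of the kinase does to RNA levels. LAMB1 fell most, to 171, 148 and 165 TPM with compound 2 against 305, 273 and 277 TPM with DMSO, and the groups were far apart (log2 change -0.82 ± 0.07, adjusted p = 3.33e-07 by limma). LAMA5 had 104, 87.9 and 94.0 TPM against 132, 119 and 122 TPM (-0.38 ± 0.11, adjusted p = 0.0101), and LAMC1 113, 122 and 117 TPM against 146, 138 and 142 TPM (-0.28 ± 0.05, adjusted p = 0.000478). In both, no compound 2 library reached the lowest DMSO library. The values that chose LAMB1, LAMA5 and LAMC1 were not given. Had they been chosen for this fall, their p-values would be too small. These 3 of the 8 tested genes passed, all lower, beside 63.7% of 13106 genes that passed, 51.8% lower and 12% higher, so the share of the 8 is below the share of all genes.

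Because so many genes were lower, the scaling sets the direction of the smaller changes. The median change over all genes was -0.31, and centring each library on its median gene moved values by 0.51. With centring, LAMB1 was still lower (-0.31, adjusted p = 0.00697), LAMC1 was higher (0.23, adjusted p = 0.00434), LAMA5 did not pass (0.12, adjusted p = 0.376) and COL12A1 was higher (0.81, adjusted p = 0.00438). Of all calls, 18.8% were higher without centring and 64.0% with it. Over protein-coding transcripts alone, LAMA5 did not pass either (-0.13, adjusted p = 0.406). LAMB1 is thus the only one of the 8 that passed in the lower direction under both scalings.

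LAMB2 had 35.7, 32.9 and 25.8 TPM with compound 2 against 41.1, 41.1 and 30.4 TPM with DMSO and was lower in each batch (-0.25 ± 0.19, adjusted p = 0.290, with batch as a block 0.0269). LAMB3 had 15.8, 12.2 and 14.1 TPM against 19.9, 14.5 and 16.5 TPM (-0.25 ± 0.12, adjusted p = 0.0786), whereas it had been higher with TAOK2 siRNA. LAMB3 passed when DMSO replicate 2 (adjusted p = 0.0223) or compound 2 replicate 1 (0.0355) was left out. COL12A1 had 3.95, 7.72 and 5.49 TPM against 3.32, 5.49 and 4.33 TPM (0.30 ± 0.22, adjusted p = 0.256), but its protein-coding transcripts alone changed by -0.33 (adjusted p = 0.131). EFEMP1 had 13.4, 26.6 and 14.5 TPM against 15.3, 31.6 and 14.0 TPM (-0.12 ± 0.37, adjusted p = 0.795), and LAMA3 9.85, 5.51 and 8.56 TPM against 10.5, 6.35 and 9.94 TPM (-0.15 ± 0.20, adjusted p = 0.544). With centring LAMB2, LAMB3, LAMA3 and EFEMP1 changed sign, to 0.26, 0.26, 0.36 and 0.39, and none of these 4 passed. LUM stood at 0.0811 to 0.296 TPM with compound 2 and 0.0448 to 0.251 TPM with DMSO.

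The make-up of the genes was also compared between compound 2 and DMSO. Shares of a gene's TPM held by each transcript were tested with limma on the log2 odds, a measure the sums above do not use. Of 27 transcripts tested in the 8 genes, 12 had an adjusted p under 0.05, 6 with a higher and 6 with a lower share, each in the same direction in all 3 batches; 7 passed without compound 2 replicate 3. Among 31480 transcripts of all genes 35.2% passed, 17.8% higher and 17.4% lower. The count for the 8 genes is not far from that share and is not read as particular to them. The clearest shift was in COL12A1. COL12A1-208, a short retained-intron transcript that lies 17.6 kb from the gene's 5′ end and ends 93.3 kb before its 3′ end, had 1.76, 4.28 and 2.32 TPM with compound 2 against 0.160, 0.602 and 0.495 TPM with DMSO. Its share was 47.4% ± 7.05 against 9.08% ± 3.70 (SD, n = 3 each; log2 odds 2.18 ± 0.24, adjusted p = 2.78e-05). COL12A1-201, the full-length coding transcript, held 46.4% ± 5.23 against 67.8% ± 3.34 (adjusted p = 0.000573), and COL12A1-205, which covers the 3′ part of the gene, 3.07% ± 2.13 against 14.7% ± 1.73 (adjusted p = 0.00195).

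LAMA3 showed a like gain at its 5′ end. LAMA3-204, annotated as subject to non-stop decay, starts with the long transcripts and ends 160.1 kb before the gene's 3′ end; it had 1.55, 1.36 and 1.68 TPM with compound 2 against 0.228, 0.401 and 0.708 TPM with DMSO, and its share was 20.0% ± 4.51 against 5.20% ± 2.65 (adjusted p = 0.00618). LAMA3-202, from the same distal start, held most LAMA3 RNA in both groups, 66.4% ± 14.0 and 68.9% ± 9.08 (adjusted p = 0.841), and transcripts of the inner start averaged 0.0759 and 0.255 TPM. LAMA3-210, annotated as a processed transcript, held 2.82% ± 2.16 against 9.63% ± 4.81 and passed only with batch as a block (adjusted p = 0.00747, without the block 0.274). LAMB3-204, whose start is shown above, held 17.2% ± 1.13 against 9.61% ± 3.92 (adjusted p = 0.0170) and LAMB3-201 72.7% ± 1.57 against 81.6% ± 8.13 (adjusted p = 0.0829). The LAMB3-204 call was lost without DMSO replicate 3 (adjusted p = 0.0514). LAMB1-202, a coding transcript of 0.550 kb that ends 74.6 kb short of the 3′ end, rose in share, 7.49% ± 1.47 against 4.57% ± 0.22 (adjusted p = 0.00699), although its level did not differ much, 15.7, 10.1 and 10.6 TPM against 14.7, 11.99 and 12.5 TPM.

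Among laminin chains the shares that fell belonged to short transcripts inside the gene. LAMB2-215, a retained-intron transcript, held 2.59% ± 0.59 against 8.52% ± 1.70 (adjusted p = 0.000377), LAMA5-214 4.23% ± 0.80 against 6.95% ± 0.0908 (adjusted p = 0.0203) and LAMA5-205 4.15% ± 1.54 against 6.74% ± 0.64 (adjusted p = 0.0471). The full-length coding transcripts LAMA5-201, 77.3% ± 5.16 against 65.6% ± 3.75 (adjusted p = 0.0223), and LAMB1-201, 78.8% ± 1.42 against 70.9% ± 3.28 (adjusted p = 0.0207), gained. In LAMB1 LAMB1-206 and LAMB1-207, noncoding transcripts in the 3′ part and each below the share needed for a test, were far lower; they were picked out after their values were seen. LAMB1-207 had 0.982, 1.74 and 2.08 TPM with compound 2 against 13.2, 12.7 and 11.8 TPM with DMSO, and LAMB1-206 had 0.133, 0.0615 and 0.362 TPM against 6.20, 7.33 and 4.34 TPM. All noncoding LAMB1 transcripts together held 3.62% ± 0.77 with compound 2 against 14.2% ± 1.25 with DMSO, while in the median gene the share not annotated as protein-coding was 10.6% and 9.89%. In EFEMP1 the transcript EFEMP1-214, annotated as a target of nonsense-mediated decay, held 12.3% ± 4.82 against 19.3% ± 1.28 (adjusted p = 0.0414, with batch as a block 0.0619). Leaving out 1 library ended the calls of 5 of these shares. LAMA5-205 missed without any DMSO replicate or compound 2 replicate 1 or 3 (adjusted p = 0.0732 to 0.176), and with 0.1 TPM added in place of 0.5 TPM (0.0647). LAMA5-214 and EFEMP1-214 missed without the same 5 libraries (0.0501 to 0.0756 and 0.0699 to 0.1495). LAMA5-201 missed without DMSO replicate 2 or compound 2 replicate 1 or 3 (0.0592 to 0.0898), and LAMB1-201 without DMSO replicate 1 or 2 or compound 2 replicate 3 (0.0546 to 0.0833). LAMC1 had no transcript that passed.

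**Figure D3:**
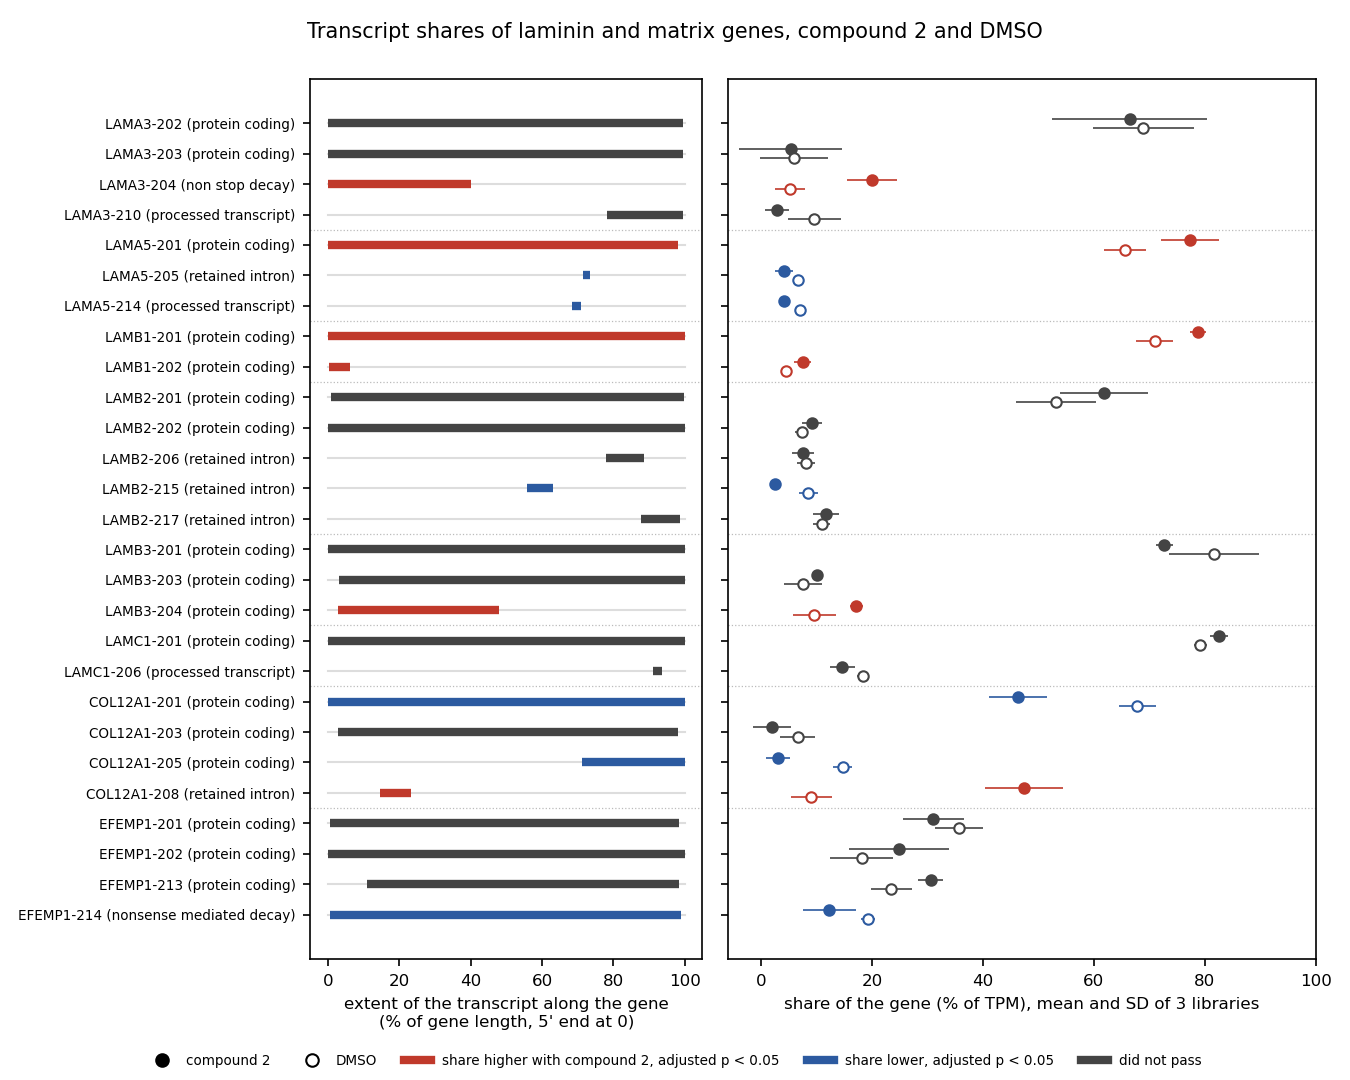
Left, the extent of each tested transcript along its gene, in percent of the gene's length from the 5′ end; right, its share of the gene's TPM with compound 2 (filled) and DMSO (open), mean and SD of 3 libraries, with red for shares that rose, blue for shares that fell and grey for those that did not pass. COL12A1-208 moves to 47.4% with compound 2 against 9.08% with DMSO, and the red short transcripts of COL12A1, LAMA3, LAMB3 and LAMB1 end before the middle of their genes.

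The plot of transcript extents and shares shows the 4 short transcripts that rose, COL12A1-208, LAMA3-204, LAMB3-204 and LAMB1-202, ending at 23.3%, 39.998%, 47.9% and 6.07% of the gene's length. The short internal ones that fell, LAMB2-215, LAMA5-214 and LAMA5-205, start at 55.8%, 68.5% and 71.5%, and COL12A1-205 starts at 71.1%. These positions were read after the shares were seen.

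Control siRNA was set against DMSO to compare the control groups. They differ both in siRNA transfection and in the vehicle, so the effect of transfection by itself cannot be told apart here. The knockdown comparison, whose values chose LAMB3, COL12A1 and EFEMP1, shares these control siRNA libraries, and the values that chose the other genes were not given. The values of the genes studied here are therefore descriptions with no test. LAMB3 had 11.98, 11.8 and 12.3 TPM with control siRNA against 19.9, 14.5 and 16.5 TPM with DMSO (-0.45 ± 0.12). Of all 13106 genes, 6.43% had an adjusted p under 0.05 by limma, 4.32% higher and 2.11% lower. Higher genes were 67.1% of these calls (54.3% with centring). Under 12 other settings the LAMB3 change ran from -0.55 to -0.34. LAMB1 had 347, 319.6 and 324 against 305, 273 and 277 TPM (0.21 ± 0.07). EFEMP1 had 8.67, 9.44 and 10.5 against 15.3, 31.6 and 14.0 TPM (-0.93 ± 0.37).

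Nuclear RNA was compared with cytoplasmic RNA in control siRNA cells to see where the transcripts reside. Of the 9 genes, 4 passed, LAMB1, LAMB2 and LAMA3 higher in nuclear RNA and LUM lower, beside 48.7% of 13751 genes, 29.8% higher and 18.9% lower. LAMB1 had 239.8 and 244 TPM in nuclear RNA against 112 and 114 TPM in cytoplasmic RNA (1.09 ± 0.15, adjusted p = 0.000476), and LAMB2 123 and 53.2 TPM against 32.7 and 21.6 TPM (1.57 ± 0.48, adjusted p = 0.0253). The LAMB2 call was lost without cytoplasmic replicate 2 (adjusted p = 0.133) or nuclear replicate 1 (0.167). LUM had 6.26 and 6.87 TPM against 15.3 and 16.7 TPM (-1.17 ± 0.15, adjusted p = 0.000326) and passed under all 9 other settings. LAMA3, at 4.74 and 5.90 against 2.91 and 3.46 TPM, passed narrowly (0.59 ± 0.22, adjusted p = 0.0487) and missed when any one of the 4 libraries was left out (0.0707 to 0.224).

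These are shares of each fraction's own total, and the median gene was 0.21 higher in nuclear RNA on the log2 scale; centring moved values by 0.39. With centring, LAMB1 remained higher (0.71, adjusted p = 0.00243), LAMB2 missed (1.19, adjusted p = 0.0638), LAMA3 missed (0.21, adjusted p = 0.458) and EFEMP1 passed as lower (-1.04, adjusted p = 0.00632). Calls in the higher direction were 61.2% of all without centring and 40.4% with it. LAMA5 had 75.6 and 12.5 against 20.9 and 3.42 TPM, and without the block it differed by 1.71 ± 1.26 (adjusted p = 0.293). EFEMP1 had 1.39 and 1.41 against 3.15 and 2.44 TPM, and without the block it differed by -0.66 ± 0.25 (adjusted p = 0.0555). With batch as a block, LAMA5 (adjusted p = 0.00588) and EFEMP1 (0.0137) passed too. COL12A1 (0.30 ± 0.21), LAMB3 (0.10 ± 0.37) and LAMC1 (0.04 ± 0.21) did not pass, with adjusted p of 0.272, 0.848 and 0.892.

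The nuclear excess of LAMB1 and LAMB2 lay mostly in transcripts not annotated as protein-coding. These held 57.3% ± 0.21 of LAMB1 RNA in the nucleus against 18.4% ± 6.54 in the cytoplasm (SD, n = 2 each), or 139 against 20.7 TPM, while its protein-coding transcripts had 103 against 92.3 TPM. In LAMB2 they had 68.5 TPM in the nucleus against 15.6 TPM in the cytoplasm, and its protein-coding transcripts 19.7 against 11.6 TPM. Over protein-coding transcripts alone, LAMB1 differed by 0.16 (adjusted p = 0.477) and LAMB2 by 0.69 (adjusted p = 0.207). In the median gene that share was 26.3% in the nucleus and 6.25% in the cytoplasm. Of 30 transcripts tested, 5 passed, 3 with a higher and 2 with a lower share, beside 30.5% of 33461 transcripts, 14.6% higher and 15.9% lower, and 1 to 3 passed when any one of the 4 libraries was left out. LAMB1-207, a noncoding transcript 62.7 kb into the gene, held 15.8% ± 4.61 against 0.461% ± 0.163 (adjusted p = 0.00173) and LAMB1-201 40.2% ± 2.09 against 80.9% ± 6.45 (adjusted p = 0.00702). The retained-intron transcripts LAMB2-217, 39.5% ± 3.81 against 13.0% ± 3.97 (adjusted p = 0.0196), and LAMB2-206, 9.34% ± 1.504 against 2.17% ± 0.81 (adjusted p = 0.0327), were higher in the nucleus. LAMA5-203, also a retained-intron transcript, was lower there, 20.5% ± 3.20 against 36.8% ± 4.55 (adjusted p = 0.0426). LAMB2-206 and LAMA5-203 missed when any one of the 4 libraries was left out (0.0584 to 0.202 and 0.101 to 0.179), LAMB2-217 without any but cytoplasmic replicate 1 (0.0573 to 0.115) and LAMB1-201 without cytoplasmic replicate 2 (0.0544). LUM-201 held 53.4% ± 7.47 against 35.4% ± 0.94 of LUM and passed only with batch as a block (adjusted p = 0.0419, without the block 0.0615). LAMB1-206 and LAMB1-207, low with compound 2 in whole cells, had 18.9 and 27.6 TPM and 30.2 and 46.5 TPM in nuclear RNA, against at most 0.169 and 0.658 TPM in cytoplasmic RNA.

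**Figure D4:**
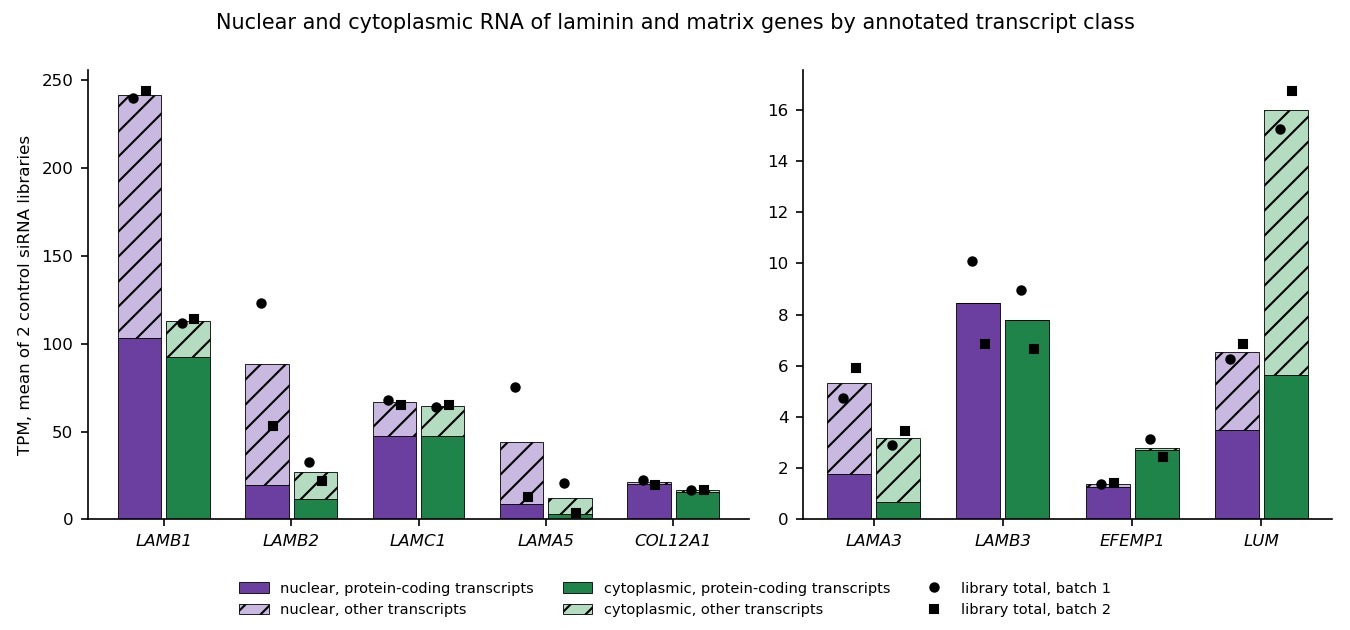
TPM of the 9 genes in nuclear and cytoplasmic RNA of control siRNA cells (bars, mean of 2 libraries, split into protein-coding transcripts, solid, and all others, hatched; points, the library totals). LAMB1 has 139 TPM of other transcripts in the nucleus against 20.7 TPM in the cytoplasm, and LUM is higher in the cytoplasm.

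The plot of transcript classes also shows that LAMB3 consists of protein-coding transcripts in both compartments and that LAMC1 has bars of like height, 66.6 TPM in nuclear and 64.7 TPM in cytoplasmic RNA.

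The partners of laminin were counted from lists chosen with earlier results known, leaving out the 9 genes. Of 17 basement membrane genes measured in whole cells, 8 were higher and 1 lower with TAOK2 siRNA at an adjusted p of 0.05, with a median log2 change of 0.39 against -0.05 over all genes, of which 7.78% were higher and 14.4% lower. With compound 2, 1 was higher and 6 lower (median -0.18 against -0.31), beside 12% and 51.8% of all genes. With centring 6 were higher and 2 lower, beside 5662 higher and 3189 lower of 13106 genes, and these shares of all genes stand behind the counts of the other lists too. NTN4, netrin-4, which binds the laminin network, fell to 59.3 TPM with compound 2 against 151 TPM with DMSO (-1.34 ± 0.09, adjusted p = 6.74e-08), while COL7A1, the anchoring fibril collagen, rose to 105 against 56.5 TPM (0.89 ± 0.29, adjusted p = 0.0202). The collagen IV chains COL4A5 and COL4A6 fell by 0.26 and 0.28 and were 0.24 and 0.23 higher with centring. NID2, nidogen-2, named after its values were seen, had 6.98, 8.86 and 8.74 TPM with TAOK2 siRNA against 1.25, 1.19 and 1.28 TPM with control siRNA (2.03 ± 0.19, adjusted p = 3.60e-05).

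Of 13 laminin receptor and hemidesmosome genes measured in whole cells, 8 were higher and 1 lower with TAOK2 siRNA (median 0.40), beside 7.78% and 14.4% of all genes. The lower one was ITGB1, the integrin beta 1 chain shared by most laminin-binding integrins, at 627, 772 and 735 TPM with TAOK2 siRNA against 1172, 1218 and 1273 TPM with control siRNA (-0.78 ± 0.07). With compound 2, none of the 13 was higher and 7 were lower (median -0.31, as over all genes), beside 12% and 51.8% of all genes, against 4 higher and 1 lower with centring. ITGA2, an integrin chain that binds collagen and laminin, fell to 11.0 TPM with compound 2 against 30.8 TPM with DMSO (-1.40 ± 0.24, adjusted p = 0.000273) and was also lower with centring (-0.90, adjusted p = 0.00588). ITGB4, the integrin beta 4 chain of hemidesmosomes that binds laminin-332, fell to 59.8 against 114 TPM (-0.93 ± 0.21, adjusted p = 0.00251), and DAG1, dystroglycan, and ITGA3, the alpha 3 chain, by 0.45 each; these 3 did not pass with centring.

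The other lists held fewer calls. Of 6 further FACIT and fibrillar collagen genes, 1 was higher with TAOK2 siRNA in whole cells, COL5A2, at 117, 140.0 and 119.6 TPM against 73.9, 73.2 and 66.9 TPM (0.80 ± 0.08), and with compound 2 COL5A2 and COL27A1 fell by 0.31 and 1.03; COL5A2 was 0.20 higher with centring. Neither of 2 further fibulin genes passed in either comparison. Of 21 measured genes of collagen folding and crosslinking, 3 were higher and 0 lower with TAOK2 siRNA, beside 7.78% and 14.4% of all genes, and none higher and 3 lower with compound 2, beside 12% and 51.8%. Centring gave 15 higher and 0 lower with compound 2, beside 5662 and 3189 of 13106 genes. In total RNA of the fractionation experiment none of the 17 basement membrane and 15 receptor genes passed with TAOK2 siRNA, beside 0% of 13751 genes. The lack of calls is therefore not particular to these lists. With batch as a block in total RNA, 1 gene of each list was higher, beside 339 of 13751 genes called. ITGA6, an integrin alpha chain that binds laminin, had 60.3 against 33.5 TPM there (0.83 ± 0.23, adjusted p = 0.370, with batch as a block 0.0468) and COL5A2 64.7 against 36.4 TPM (0.81 ± 0.18, adjusted p = 0.265, with batch as a block 0.0364).

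Genes whose whole-cell levels ran most like those of a member were found by Pearson correlation of log2(TPM + 1) over the 12 libraries, which share 4 treatments and 3 batches. For LAMB3 these were IDS, ERP44 and REEP5 (r = 0.951, 0.948 and 0.943), and for COL12A1 they were TUBA1A, MSN and EMB (0.951, 0.949 and 0.940). EFEMP1 ran most like FOCAD, MSN and MSRB3 (0.941, 0.934 and 0.921), so MSN, which encodes moesin, was among the nearest genes of both. LAMB1, set mainly by its fall with compound 2, ran with LBX2, ARFGEF2 and SMCR8 (0.993, 0.993 and 0.992), LAMC1 with ITPRID2, PDE1C and ZC2HC1A (0.975, 0.974 and 0.970) and LAMA5 with AP1G2, ABCA7 and TRIOBP (0.975, 0.974 and 0.958). LAMA3 ran with CPLX2, MID1 and OLFML3 (0.950, 0.936 and 0.927). LAMB2 had the weakest matches, ZDHHC11, IDUA and YJEFN3 (0.879, 0.877 and 0.876).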

How the data were processed

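Transcript TPM values were deposited by the authors in 1 table per experiment; per the submitters' processing notes they came from kallisto and GRCh38.p14, with versions not given in the sources used here. TPM correct for transcript length and for the total of a library, so a shift in many genes moves all others. Of 188753 transcripts, 169797 (90.0%) were matched to genes of GENCODE 29, and transcripts of a gene were summed. No column belonged to a sample outside the series (0 such columns). The genes, lists and rule for naming further genes were chosen with earlier results of these data known. By that rule, lists give counts, up to 4 genes with the smallest adjusted p in the compound 2 and total RNA comparisons at a mean of at least 5 TPM, all laminin chains at 1 TPM or more, and the 3 genes most like each of the 9. One further gene that the rule names is not reported here.

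Levels were compared with limma 3.58.1 in R 4.3.3 on log2(TPM + 1), which understates changes of low genes. All 12 libraries of a table were fitted with group means, trended and robust variances, a mean of at least 1 TPM and Benjamini-Hochberg adjustment over all genes at 0.05. Adjusted p-values in the text are from limma, from these fits or from the alternative or share fit named beside the value. Each SE is from the fit without batch as a block. Transcript shares were fitted as log2 odds after adding 0.5 TPM, for genes of at least 5 TPM and transcripts holding at least 5%. The calculation was tested on simulated data.

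Batch names give the replicate numbers. Deviations from group means correlated at more than 0.1 in 30 of 30 same-batch pairs of the fractionation experiment (0.531 to 0.837) and in 12 of 18 of the whole-cell one (-0.302 to 0.639). The batch label pairs the libraries, so values with batch as a block are given where they change a call of a tested member or its transcripts. List counts are without the block unless stated, and it changed several. With the block, 6 collagen folding genes were higher with TAOK2 siRNA, beside 3660 of 13106 genes called. With compound 2, 1 receptor gene was higher and 9 were lower, beside 8828 genes called. Other alternatives were pseudocounts, filters, centring, protein-coding transcripts only, batch B left out (chosen after seeing the data) and each library left out.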

Additional observations from a re-analysis of the deposited data

Results flagged for a closer look

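Some knockdown effects pointed one way in every batch of whole cells and the other way in every batch of a fraction, a difference that was not tested. LAMB2 was 0.52 higher in whole cells on the log2 scale and changed by -0.41 in total RNA and by -0.64 in cytoplasmic RNA. COL12A1 was 1.30 higher in whole cells and changed by -0.19 in nuclear RNA and by -0.38 in cytoplasmic RNA. LAMC1 was 0.19 higher in whole cells and changed by -0.0434 in cytoplasmic RNA. The fraction values had 2 libraries a group, and none of them passed the limma test.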

How the results depend on the processing

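Of the values that answer a comparison, 79 kept their size under an alternative, 17 were lower and 3 higher. They are counts passing in either direction, and for the whole-cell knockdown a median change. A kept count need not keep its genes or direction. With centring the compound 2 count did not change, but LAMC1 had turned higher and COL12A1 was newly higher. Many kept counts were 0 in the fraction knockdown comparisons, where few genes of the whole table were called without the block. The control siRNA against DMSO counts are among these values but are not read, because the control siRNA libraries also entered the choice of the genes. Batch as a replicate block gave 1 call with TAOK2 siRNA in nuclear and 1 in cytoplasmic RNA. The nuclear against cytoplasmic count was 2 with protein-coding transcripts alone and 2 to 3 with 1 library left out. The share counts were 7 to 13 for compound 2 with 1 library left out, and, for nuclear against cytoplasmic RNA, 3 with 0.1 TPM added and 1 to 3 with 1 library left out. In the fractions a lone library was taken to vary like the other groups.

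Centring turned round the compound 2 changes of LAMA3 (0.36), LAMA5 (0.12), LAMB2 (0.26), LAMB3 (0.26), LAMC1 (0.23) and EFEMP1 (0.39), the cytoplasmic knockdown change of LAMC1 (0.0116), and the nuclear to cytoplasmic differences of LAMB3 (-0.29), LAMC1 (-0.34) and COL12A1 (-0.0853). Protein-coding transcripts alone turned round COL12A1 (-0.33) and EFEMP1 (0.0235) with compound 2 and LAMC1 between compartments (-0.00418). With 1 library left out, compound 2 changes ran from -0.35 to 0.0639 for LAMA3 and from -0.42 to 0.23 for EFEMP1. Total RNA knockdown changes ran from -0.81 to 0.000414 for LAMB2, from -0.22 to 0.36 for COL12A1 and from -0.00423 to 0.38 for EFEMP1, and the nuclear to cytoplasmic difference of LAMB3 from -0.15 to 0.34. The cause was not tested. The depth of each library is unknown, and 2 libraries a group limit the fractions.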
